A study of Mus musculus with 9 samples.

Results

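Embryonic stem cells (ESCs) were compared with epiblast stem cells (EpiSCs) that had been cultured with IWP2, in mouse cells of the C57BL/6 strain. The comparison takes the 3 arrays labelled ESC and the 3 labelled EpiSC with IWP2, 6 of the 9 arrays of the study, and covers all 18193 genes that could be named on the array. The remaining 3 arrays, EpiSCs with vehicle, are given beside them to show where the 2 kinds of EpiSC culture differed. EpiSCs of both kinds grew in N2B27 on a coating of gelatine and FCS, with 20 ng/ml Activin A and 12 ng/ml bFGF. ESCs grew in N2B27 on gelatine, with 1000 U/ml LIF and 250 ng/ml of the Wnt ligand Wnt3a. Cell type, coating, growth factors and IWP2 therefore all changed together between the ESC and the IWP2 arrays, and their contributions cannot be told apart. The signal of the Y-linked genes Eif2s3y, Kdm5d and Uty, near the floor in ESCs alone, changed with them too, as described with the sex chromosomes. The labels call the arrays of a group biological replicates and do not name the lines. P-values set each difference against the spread between arrays of a group, estimated over all 9 arrays. If a group came from a single line, they do not cover variation between lines. How much IWP2 was used, and for how long, the labels do not say. Their treatment protocol also speaks of Wnt3a added after IWP2, and a change of medium in all samples before it. No sample labelled with that step was analysed here, and whether Wnt3a or its vehicle was also added to the IWP2 and vehicle cultures is not given in the sources used here.

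ESCs stand for the naive pluripotency of the preimplantation epiblast, held by LIF through STAT3 and by Wnt through beta-catenin. EpiSCs stand for the primed epiblast after implantation, held by Activin and FGF, and they express genes of the epiblast that is about to form the germ layers. Wnt proteins need a lipid added by the enzyme Porcupine before they can be secreted, and IWP2 inhibits Porcupine. EpiSCs secrete Wnt and respond to it, and in ordinary culture a share of them turns on genes of the primitive streak and of definitive endoderm. Set against IWP2-treated EpiSCs, ESCs can be compared with primed cells in which those genes are low.

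Values are log2 signals of Affymetrix Mouse Genome 430 2.0 arrays as deposited, 1 probe set per gene, and each difference is ESC minus IWP2-treated EpiSC on the log2 scale unless stated. A gene is called where limma's moderated test gave an adjusted p below 0.05. Arrays carry no absolute zero, so signals near the lower quartile of all values, 3.72, are read as low and not as absent. Arrays of 1 group correlated at 0.9965 to 0.9976 over all probe sets, ESC with IWP2 arrays at 0.9269 to 0.9293 and IWP2 with vehicle arrays at 0.982 to 0.9852. The difference between 3' and 5' probe sets of Actb, a sign of RNA integrity, was 0.64 to 0.66 in ESCs, 0.64 to 0.69 with IWP2 and 0.53 to 0.59 with vehicle. The lower quartile of all values was 3.788 to 3.801 on the ESC arrays and 3.679 to 3.692 on the IWP2 arrays, and the upper quartile 7.294 to 7.317 and 7.415 to 7.439. Naive factors summed to a linear signal of 38150 to 38547 on the ESC arrays and of 2709 to 2756 on the IWP2 arrays. Genes of the formative and primed epiblast summed to 8429 to 8644 in ESCs and 29208 to 30009 in IWP2-treated EpiSCs. Vehicle arrays summed to 51073 to 51580 for these genes. Between ESCs and IWP2-treated EpiSCs, each label thus had the higher sum of its own markers. Both lists were chosen with earlier results of these data known, so the sums are no independent check of the labels.

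ESCs and IWP2-treated EpiSCs differed across much of the transcriptome. Of the 18193 genes, 6400 (35.2%) were called higher in ESCs and 4898 (26.9%) lower, while 6895 were not called. Counts of list members given later are to be read beside these shares. A list near them differed about as often as genes in general. With quantile normalization repeated, which evens out the quartiles of the arrays, 6001 were called higher and 4864 lower. The median gene differed by 0.10. At least 2-fold differences were fewer, with 1432 genes (7.87%) higher and 1711 (9.4%) lower. At least 4-fold differences were found in 525 genes higher and 541 lower. At the far end the balance turned, with at least 16-fold differences in 158 genes higher and 80 lower. The plot of group means shows this as a tail of genes near the floor in IWP2-treated EpiSCs and high in ESCs. For the vehicle cultures, ESC minus vehicle called 7045 genes (38.7%) higher and 5078 (27.9%) lower. IWP2 minus vehicle called 3029 genes (16.6%) higher and 3065 (16.8%) lower. These contrasts share arrays with the ESC and IWP2 comparison, so only each one's own values are set side by side.

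**Figure D1:**
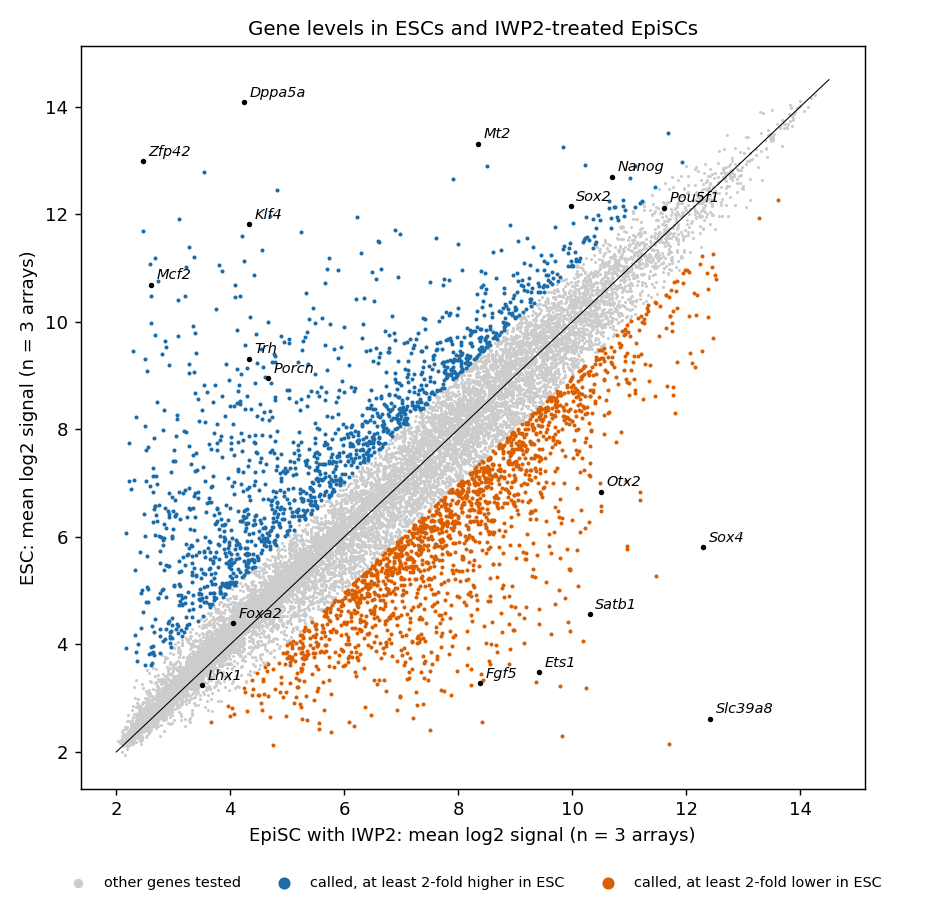
Mean log2 signal of each of 18193 genes in IWP2-treated EpiSCs (x axis) against ESCs (y axis), 3 arrays each; coloured points are genes called and at least 2-fold different, 1432 higher and 1711 lower in ESCs. Zfp42 and Dppa5a lie at the top left and Slc39a8 at the bottom right, while the endoderm gene Foxa2 and the streak gene Lhx1 lie close to the diagonal at low signal.

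The largest rise was in Zfp42 (Rex1), a zinc finger protein used as a marker of naive cells. Its log2 signals were 2.40, 2.59 and 2.43 on the IWP2 arrays and 13.02, 12.94 and 12.99 on the ESC arrays, a difference of 10.51 (SE 0.06, adjusted p = 1.04e-13). Dppa5a, a KH-domain protein of pluripotent cells, stood at 4.33, 4.26 and 4.15 in IWP2-treated EpiSCs and at 14.03, 14.09 and 14.13 in ESCs. Its difference of 9.84 was the second largest of those named by the rule for named genes. The 13 other genes with the largest rises spanned 9.25 to 7.30. Among them were Rps4l, a ribosomal protein gene copy, at 9.25; Morc1, a transposon-silencing ATPase of the germline, at 9.22; and the nuclear receptor Nr0b1 (Dax1) at 8.81. Mageb16, Dppa2, Rnf17, Efhc2 and Rhox5 rose by 8.48, 8.13, 7.86, 7.86 and 7.62. Phf11d and Mymx, the latter a microprotein known from myoblast fusion, rose by 7.40 and 7.36. In all of these the ESC arrays lay above every IWP2 array, which the rule required. In 14 of the 15 genes the means of the EpiSC cultures lay close together, the widest gap being the 0.69 of Klf4. Mcf2, a guanine nucleotide exchange factor encoded on the X chromosome, was the exception, with vehicle arrays at 6.56, 6.64 and 6.41 against 2.61, 2.74 and 2.46 with IWP2 and 10.65, 10.71 and 10.71 in ESCs.

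Slc39a8 (Zip8), a transporter of zinc and manganese, gave the largest fall. It read 12.38, 12.37 and 12.50 in IWP2-treated EpiSCs and 2.77, 2.44 and 2.63 in ESCs, a difference of -9.80 (SE 0.09, adjusted p = 5.5e-13). Klhl4, a kelch-repeat protein gene on the X chromosome, followed with -9.54, from 11.54, 11.71 and 11.84 to 2.36, 2.10 and 2.00. The transcription factor Sox4 dropped by 6.49, the chromatin organiser Satb1 by 5.74 and the transcription factor Ets1 by 5.94. Others were Jph1, a protein of membrane junctions (-6.56), the keratan sulfate sulfotransferase Chst1 (-6.19), Fndc3c1 (-6.13), the secreted kinase Pkdcc (-6.06), Ppp1r14c (-5.71), the carbonic anhydrase Car4 (-5.50), Kctd12b (-5.43) and the axon guidance ligand Sema3c (-5.26). All of these genes were called lower in ESCs than in vehicle cultures too. Of the 13, 10 were also called higher with IWP2 than with vehicle, from Sox4 (0.32) to Kctd12b (2.20), while Pkdcc (-1.97) and Fndc3c1 (-0.20) were lower with IWP2 and Car4 was not called. Among all genes 16.6% were called higher with IWP2 than with vehicle. The 13 were picked for high IWP2 values against ESCs, which favours such genes, so their count is not a separate result. Also among the 15 were the Y-linked genes Eif2s3y (-7.52) and Kdm5d (-5.87), described with the sex chromosomes.

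All 19 naive pluripotency factors measured were called higher in ESCs, 18 of them at least 2-fold, with a median difference of 4.91 against 0.10 for all genes. Against vehicle cultures the same list had a median of 4.71, again with 19 called higher. Klf4, a Krüppel-like factor downstream of LIF, read 4.39, 4.53 and 4.10 with IWP2 and 11.83, 11.79 and 11.81 in ESCs, a rise of 7.48. Tcl1, a co-activator of the kinase Akt, rose by 7.30 and the T-box factor Tbx3 by 6.79. Prdm14, a repressor of the methylation and FGF programme, rose by 6.53, from 2.54, 2.56 and 2.54 to 9.09, 9.05 and 9.08. Tfcp2l1, which responds to both LIF and Wnt, rose by 6.43. The smallest rises of the list were in Tead4 (0.97), Fgf4 (1.49) and Stra8 (1.802). Fgf4, the main FGF ligand of the inner cell mass, stood at 7.30, 7.38 and 7.29 with vehicle, 9.28, 9.19 and 9.18 with IWP2 and 10.73, 10.71 and 10.68 in ESCs. IWP2-treated EpiSCs therefore lay between the other groups for Fgf4, 1.89 above vehicle (adjusted p = 9.63e-09). Klf4 went the other way, since IWP2-treated EpiSCs lay 0.69 below vehicle (adjusted p = 0.000773), as did Tfcp2l1 (-0.70, adjusted p = 2.26e-05). Of the 19 factors, IWP2 minus vehicle called 3 higher and 4 lower, with a median of 0.09.

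Pluripotency factors shared by both states differed less. Pou5f1 (Oct4) read 11.78, 11.54 and 11.52 with IWP2 and 12.06, 12.13 and 12.17 in ESCs, a rise of 0.51 (SE 0.08, adjusted p = 0.000219). The groups did not overlap, but the step was small beside those of the naive factors. Sox2 rose by 2.18, from 9.87, 10.07 and 9.98 to 12.19, 12.11 and 12.16. Nanog rose by 2.00, from 10.67, 10.70 and 10.72 to 12.72, 12.66 and 12.71. In the list of general pluripotency factors, 11 of 14 measured were called higher and 2 lower, with a median of 0.67. Dppa2 and Dppa4, chromatin factors of pluripotent cells, carried the largest rises, 8.13 and 6.46, and Rif1 rose by 0.84. Sall4 was called higher by 0.91 on the probe set used, while the mean of its 2 probe sets gave -0.12, so its direction depends on the probe set. The 2 members called lower were the RNA-binding proteins that block let-7 maturation. Lin28a read 8.30, 8.18 and 8.44 with IWP2 and 7.01, 6.97 and 7.04 in ESCs (-1.30). Lin28b read 4.88, 5.18 and 5.96 with IWP2, 2.48, 2.75 and 2.55 in ESCs (-2.75) and 3.50, 2.94 and 3.18 with vehicle. Lin28b was thus highest in IWP2-treated EpiSCs, 2.13 above vehicle (adjusted p = 0.000128). The co-receptor Tdgf1 was not called (0.03).

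Genes of the LIF pathway, which only the ESC medium was labelled to engage, were mostly higher in ESCs: 8 of 13 called higher, 1 lower, with a median of 1.50. The receptor gene Lifr rose by 3.68, from 5.81, 5.80 and 5.81 to 9.49, 9.51 and 9.47, and vehicle EpiSCs lay between at 7.64, 7.39 and 7.69. Il6st (gp130), the receptor's partner, rose by 1.87. Socs3, a feedback inhibitor induced by STAT3, rose by 1.87, Bcl3 by 2.74 and the kinase gene Pim1 by 1.50. Jak2 was called lower (-0.50), and Jak1 (-0.16), Cish (-0.23) and Pim3 (-0.07) were not called.

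**Figure D2:**
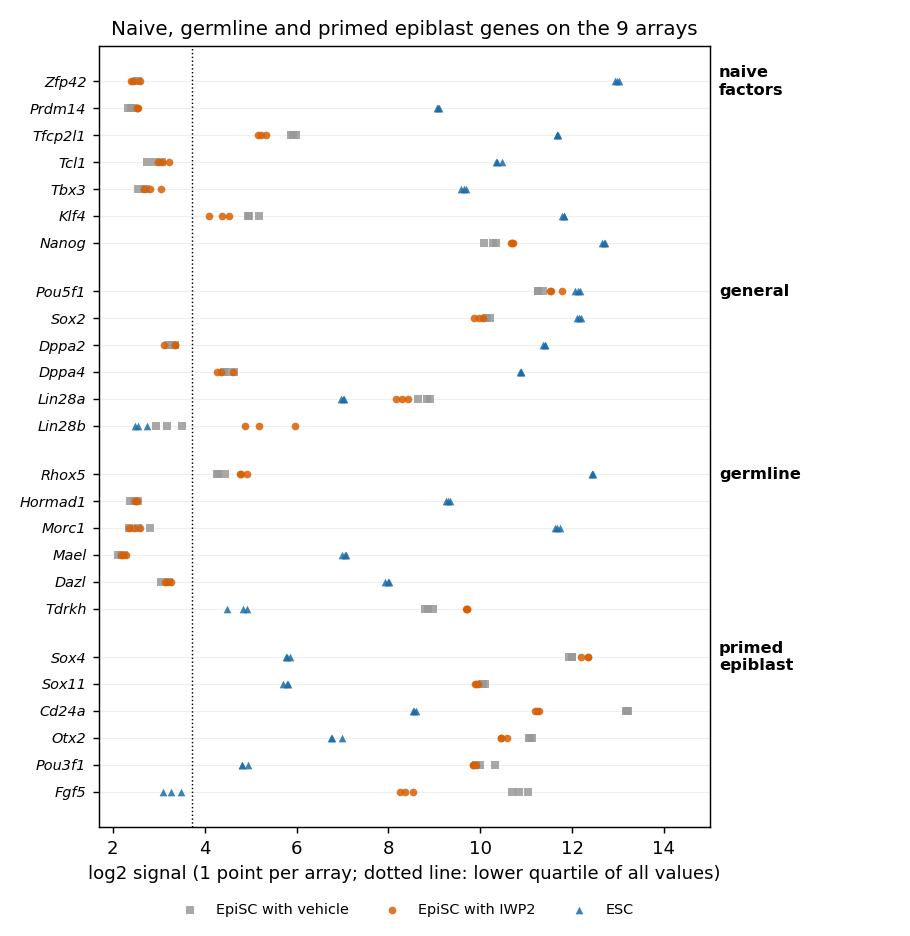
Log2 signal on each of the 9 arrays for naive, general pluripotency, germline and primed epiblast genes; each point is 1 array, and the dotted line is the lower quartile of all values, 3.72. Naive and germline genes such as Zfp42 and Hormad1 separate ESCs from both kinds of EpiSC culture, whereas Lin28b and Fgf5 differ between the EpiSC cultures too.

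Germline genes formed the other large block of ESC-high genes. These genes are kept silent in somatic cells, many of them by DNA methylation of their promoters, and serve meiosis and the defence against transposons. Of 28 measured, 24 were called higher, 21 at least 2-fold, and 1 lower, with a median of 3.54. Rhox5, a homeobox gene of the X chromosome, rose by 7.62. Hormad1, a protein of the meiotic chromosome axis, read 2.53, 2.51 and 2.48 with IWP2 and 9.35, 9.30 and 9.25 in ESCs, a rise of 6.79. Morc1 rose by 9.22. The piRNA pathway gene Mael rose by 4.82, from 2.28, 2.19 and 2.22 to 7.05, 7.09 and 6.995, and the RNA-binding protein gene Dazl by 4.79. All 6 EpiSC arrays were near the floor for Hormad1, Mael and Dazl. Brdt (-0.15), Tdrd1 (0.14) and Tuba3b (0.06) were not called. The 1 member lower in ESCs was Tdrkh, a Tudor-domain partner of PIWI proteins. It read 9.70, 9.69 and 9.71 with IWP2, 8.87, 8.79 and 8.98 with vehicle and 4.49, 4.92 and 4.83 in ESCs (-4.96). All 7 measured genes of the Dppa and Khdc3 group, which includes maternal-effect genes, were called higher as well, at least 2-fold each, with a median of 4.80. They were Dppa5a, Ooep (7.27), Gdf3 (5.34), Tdrd12 (4.80), Nlrp4f (4.24), Khdc3 (3.13) and Nlrp14 (2.09). Of 7 measured genes of the two-cell stage all were called higher, 4 at least 2-fold, with a median of 1.48. Usp17la led them with 3.82 and Zfp352 followed with 1.96, while Duxf3 (0.38) and Tcstv1 (0.29) changed little. Duxf3, Tcstv1 and Tcstv3 averaged 3.69, 2.86 and 3.47 in ESCs, below the lower quartile of 3.72 even there. Zscan4c, Zscan4d, Zscan4f, Usp17lc, Tmem92 and Gm4340 of this list were not measured, so the counts say nothing of the Zscan4 genes. The call of Tcstv1 was lost under 8 of 21 alternatives, treat aside, including without EpiSC with IWP2 replicate 1 or 3 and without ESC replicate 2 or 3, and that of Tcstv3 (0.89, SD 0.83 over the ESC arrays) under 7 of 21, including without each IWP2 array. With genes above the median signal the list had 3 members higher.

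Promoters of the germline genes are shown because so many of them moved together and because a motif recurs in many, not all, of them. Sequences are from RefSeq (GRCm38.p6), each window running from 250 bases before to 50 after an annotated start. Windows were found for 22 of the 28 genes. The E-box palindrome CACGTG was present in a window of 13 of those 22 genes (59.1%), against 1479 of 14452 tested genes with a window (10.2%). These shares were not matched for CpG content, which was higher in germline windows (median 20 against 16), and CACGTG itself holds a CpG. Among windows of the genes at least 16-fold higher in ESCs 18.9% held it, among those at least 16-fold lower 7.14%. The genes at least 16-fold higher include germline genes such as Hormad1 and Stk31, so the 18.9% counts some of the same windows. The match is a description of these letters and not evidence of binding. Brdt and Tdrd1, which were not called, held it too. For 4 of the genes that rose, the 120 bases just before the start follow, 5′ to 3′ on the gene's strand, with CACGTG in capitals. Stk31 rose by 5.88, Slc25a31 (a testis ADP/ATP carrier) by 4.75 and Sycp3 (a protein of the synaptonemal complex) by 4.73, and these were chosen after their values were seen.
Hormad1, chr3:95559557-95559676, plus strand: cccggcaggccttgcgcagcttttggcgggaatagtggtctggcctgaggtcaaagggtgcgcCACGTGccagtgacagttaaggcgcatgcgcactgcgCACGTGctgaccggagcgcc
Stk31, chr6:49395419-49395538, plus strand: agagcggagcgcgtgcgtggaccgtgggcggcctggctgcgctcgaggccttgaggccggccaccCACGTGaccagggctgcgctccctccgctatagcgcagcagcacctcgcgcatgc
Slc25a31, chr3:40708751-40708870, plus strand: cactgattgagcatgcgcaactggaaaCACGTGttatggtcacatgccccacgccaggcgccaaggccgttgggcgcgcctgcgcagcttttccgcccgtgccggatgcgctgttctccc
Sycp3, chr10:88459467-88459586, plus strand: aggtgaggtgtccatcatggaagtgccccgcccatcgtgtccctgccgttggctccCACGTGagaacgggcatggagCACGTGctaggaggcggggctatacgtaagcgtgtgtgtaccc
The palindrome occurs 2 times in the stretches of Hormad1 and Sycp3 and 1 time in those of Stk31 and Slc25a31. CpG dinucleotides numbered 11 in the Hormad1 stretch, 15 in that of Stk31, 12 in that of Slc25a31 and 9 in that of Sycp3.

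Windows of the genes with the largest rises differed in CpG content from the germline windows. The median window of all tested genes held 16 CpGs per 300 bases, that of the germline list 20 and that of the genes at least 16-fold higher in ESCs 8. At most 5 CpGs were found in 35.2% of the windows of genes at least 16-fold higher and in 16 of the 84 windows of genes at least 16-fold lower, against 23.5% of all windows. At 2-fold the shares were 20.7% for genes higher and 12.5% for genes lower. The median window of the naive factors held 9.5 CpGs, that of the 2-fold higher genes 15 and that of the 2-fold lower genes 20. The Zfp42 window is shown as the gene with the largest rise, with its octamer (ATGCAAAT or its reverse complement, the letters that POU factors are known to prefer) in capitals, from base -240 to base -121 before the start.
Zfp42, chr8:43307130-43307249, minus strand: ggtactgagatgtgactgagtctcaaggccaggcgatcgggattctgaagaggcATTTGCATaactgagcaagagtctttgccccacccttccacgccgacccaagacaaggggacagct
The octamer was present in 1.39% of all windows and in 3.14% of those of genes at least 16-fold higher. The Zfp42 stretch held 4 CpGs.

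Genes of the formative and primed epiblast were lower in ESCs for the most part. Of 26 measured, 19 were called lower, 18 at least 2-fold, and 6 higher, with a median of -1.85. Fgf5, the FGF ligand that marks the epiblast after implantation, read 8.53, 8.36 and 8.26 with IWP2 and 3.09, 3.47 and 3.27 in ESCs, a difference of -5.11 (SE 0.12, adjusted p = 2.15e-10). Vehicle cultures read 10.84, 11.05 and 10.70 for Fgf5, so IWP2-treated EpiSCs lay between, 2.48 below vehicle. Otx2, a homeobox factor of the primed epiblast, behaved alike with a smaller step between EpiSC cultures. It read 10.46, 10.46 and 10.57 with IWP2, 11.05, 11.12 and 11.09 with vehicle and 6.77, 6.99 and 6.75 in ESCs (-3.66). The POU factor Pou3f1 (Oct6) read 9.85, 9.92 and 9.84 with IWP2 and 4.93, 4.81 and 4.82 in ESCs (-5.01), and its vehicle arrays, at 9.99, 10.33 and 9.91, were not called different from IWP2 (adjusted p = 0.143). The SoxC genes Sox4 and Sox11 differed by -6.49 and -4.14, and Cd24a, a surface glycoprotein, by -2.67. Otx2, Pou3f1, Sox4 and Sox11 were therefore high in EpiSCs with and without IWP2, but the list as a whole was not level between them. IWP2 minus vehicle called 13 of its 26 genes lower, 7 at least 2-fold, and 6 higher, with a median of -0.21. Among all genes 16.8% were called lower and 16.6% higher. Cd24a was 1.96 lower with IWP2 than with vehicle. Members higher in ESCs included the Nodal antagonist Lefty2 (3.18), the epithelial factor Grhl2 (2.33), Etv4 (1.98), Foxd3 (1.51) and Epha2 (0.61), and Sema6a was not called (-0.02).

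Definitive endoderm genes, high in vehicle cultures, hardly separated ESCs from IWP2-treated EpiSCs. Beside shares of 35.2% higher and 26.9% lower among all genes, limma called 7 of 17 measured higher in ESCs than with IWP2. At least 2-fold higher were 2 of them, and 0 were lower, also 0 at an unadjusted p below 0.05. The list's median was 0.20. Against vehicle, the same genes gave 3 higher and 11 lower with a median of -3.54. The summed linear signal of the list was 7217 to 7703 with vehicle, 303 to 334 with IWP2 and 1056 to 1071 in ESCs. In a bulk culture, fewer cells of a type and less RNA per cell cannot be told apart. Foxa2, a forkhead factor of endoderm and the node, read 10.14, 10.12 and 10.07 with vehicle, 3.997, 4.21 and 3.93 with IWP2 and 4.19, 4.38 and 4.61 in ESCs. The IWP2 and ESC arrays of Foxa2 overlapped, and the call of 0.35 (adjusted p = 0.016) was at low signal. The ligand Shh was 10.65, 10.65 and 10.95 with vehicle, 4.12, 4.21 and 3.96 with IWP2 and 4.60, 4.59 and 4.76 in ESCs, a difference of 0.56. Hhex (0.51) and Gsc (0.52) were called by similar amounts. Not called were the antagonist Cer1 (0.13), Sox17 (0.20), Foxa1 (-0.13), Gata6 (0.10), Krt19 (-0.13) and Cxcr4 (-0.23), whose ESC minus vehicle differences ran from -3.15 for Sox17 to -5.29 for Cer1. Spink1 and Trh departed from the rest of the list. Spink1, a trypsin inhibitor, read 10.25, 10.28 and 10.35 with vehicle, 3.17, 2.71 and 2.89 with IWP2 and 6.57, 6.45 and 6.25 in ESCs (3.50). Trh, the thyrotropin-releasing hormone gene, was highest in ESCs at 9.34, 9.29 and 9.31 against 4.03, 4.51 and 4.44 with IWP2 (4.99) and 5.93, 6.24 and 5.94 with vehicle. Without Spink1 and Trh, left out after their values were seen, the list summed to 330 to 358 in ESCs, 278 to 305 with IWP2 and 5935 to 6335 with vehicle. Gata4, Foxa3, Tff3 and Cldn8 were low in all 3 groups and not called, and Ttr was called by 0.22.

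Primitive streak and mesoderm genes likewise differed little in size between ESCs and IWP2-treated EpiSCs. The streak gene T (Brachyury) and Noto were not measured, so this does not cover them. Of 25 measured, 14 were called higher in ESCs than with IWP2, 5 lower and 6 not, against 35.2% higher and 26.9% lower among all genes. Only 2 were higher and 3 lower at least 2-fold, with a median of 0.28. The count of 14 was not stable: it was 8 among genes above the median signal, 9 with cyclic loess and 9 without EpiSC with IWP2 replicate 1. ESC minus vehicle called 11 higher and 11 lower, 10 of the latter at least 2-fold, and IWP2 minus vehicle called 1 higher and 12 lower. The list summed to 6908 to 7482 with vehicle, 1385 to 1414 with IWP2 and 1930 to 2080 in ESCs. Lhx1, a LIM homeobox factor of the streak and its derivatives, was at 10.54, 10.68 and 10.22 with vehicle, 3.59, 3.44 and 3.47 with IWP2 and 3.27, 3.25 and 3.21 in ESCs. Its ESC minus IWP2 difference was -0.26 and not called (adjusted p = 0.0564), against -7.24 for ESC minus vehicle. It was called lower under 7 of 22 alternatives other than limma's treat, among them only the ESC and IWP2 arrays and without EpiSC with vehicle replicate 2 or 3 (limma, adjusted p from 0.00738 to 0.874). Cyp26a1, which breaks down retinoic acid, was not called (0.01) and differed from vehicle by -5.01. Mixl1 was not called (-0.04), with IWP2 arrays at 4.61, 5.04 and 4.74. Eomes, a T-box factor of streak and endoderm, read 8.84, 9.08 and 8.58 with vehicle, 5.49, 5.29 and 4.87 with IWP2 and 6.04, 5.75 and 5.97 in ESCs, a rise of 0.71 (adjusted p = 0.00442). A remnant above the ESC level with IWP2 was seen in Fgf8 (-1.37), with 5.61, 5.63 and 5.57 against 4.27, 4.18 and 4.25, and in the VEGF receptor gene Flt1 (-1.23). Foxc1 also differed (-1.58), and its vehicle and IWP2 arrays were not called different (adjusted p = 0.268). The apelin receptor gene Aplnr was called lower by 0.46 (-0.46) near the floor and not called as a mean of its probe sets. Sp5, a Wnt-responsive factor, was the largest rise of the list at 2.99, followed by Cdx1 (1.12), Cdx2 (0.86), Kdr (0.68) and Nodal (0.60).

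**Figure D3:**
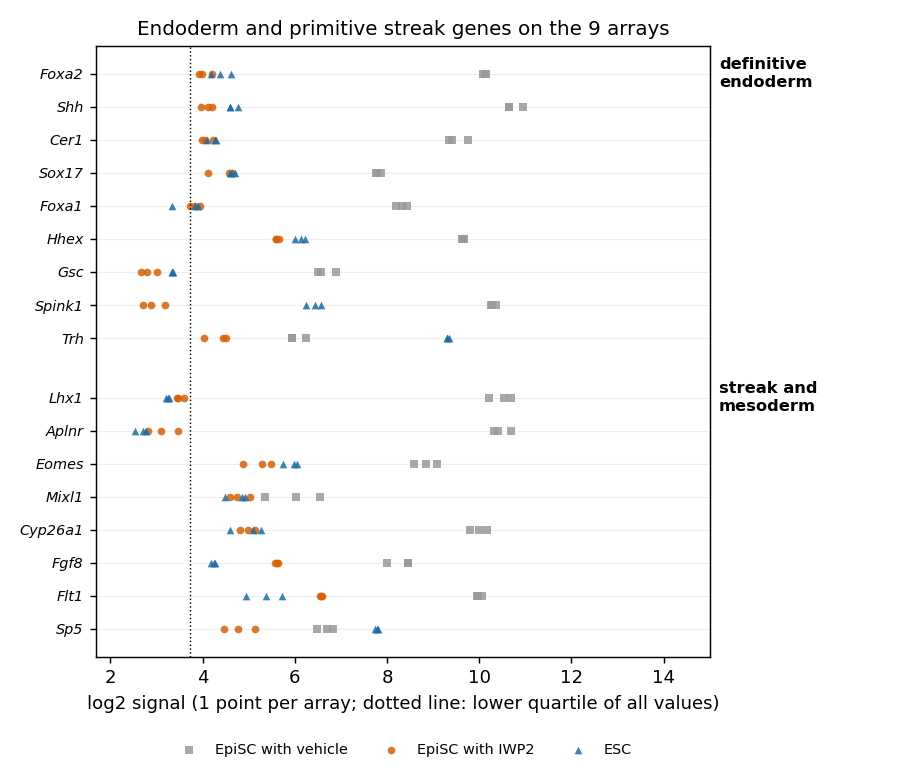
Log2 signal on each of the 9 arrays for definitive endoderm genes and for primitive streak and mesoderm genes; each point is 1 array, and the dotted line is the lower quartile of all values, 3.72. Foxa2, Shh, Lhx1 and Aplnr are high in vehicle cultures alone of the 3 groups, while Trh and Sp5 are highest in ESCs.

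The markers of other lineages were mixed and mostly at low signal. Extraembryonic endoderm genes gave 7 of 20 higher, about the 35.2% of all genes, and 7 lower. Apoe rose by 2.19 and the laminin gene Lama1 by 2.03, while the collagen gene Col4a1 (-3.37), Lamb1 (-2.45), Col4a2 (-2.16) and the adaptor gene Dab2 (-1.78) were lower. Gata4 (0.25), Gata6 (0.10) and Sox7 (0.09), which define that lineage, were not called. Trophoblast genes gave 9 of 13 higher and 0 lower by limma, also 0 lower at an unadjusted p below 0.05, led by Tfap2c (4.47), Rhox6 (3.04) and Ets2 (1.43), which naive and germ cells also use. Krt7 (0.17), Elf5 (0.08) and Gata3 (-0.01) were not called. Neurectoderm genes gave 2 of 17 higher, 5 lower and 10 not called, where 35.2% of all genes were higher and 26.9% lower. Olig2 read 5.54, 5.48 and 5.68 with IWP2 and 2.13, 2.74 and 2.72 in ESCs (-3.03), and the filament gene Nes and the fatty acid binding protein gene Fabp7 differed by -2.44 and -2.40. The forebrain factor Hesx1, at 8.35, 8.64 and 8.81 with vehicle, was 3.16, 3.05 and 3.26 with IWP2 and 4.39, 4.21 and 3.88 in ESCs (1.004). Sox1 (0.18) and Pax6 (0.05) were not called on the probe set used; as means of their probe sets they were -1.06 and -0.54 and called lower. Of the neural crest list 6 of 13 were higher and 4 lower, against 35.2% and 26.9% of all genes. Ets1 (-5.94) and Twist1 (-2.25) were among those lower. Of 15 fibroblast genes, included because feeder cells can leave RNA in such cultures, limma called 6 lower in ESCs and 0 higher, also 0 higher at an unadjusted p below 0.05; the mean of each gene's probe sets called 2 higher. Their summed signal was 506 to 525 on ESC arrays, 2023 to 2188 with IWP2 and 3452 to 4866 with vehicle. Tagln (-3.90), Acta2 (-3.29) and Col1a2 (-2.33) led them, but Acta2 was 0.08 and not called without cross-hybridising probe sets, and Col1a1, Pdgfrb, Lum and Postn were not called. Whether such cells had a part in the EpiSC-high genes was not tested.

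Wnt pathway genes were compared because Wnt3a was in the ESC medium and secretion of the cells' own Wnt was blocked in the IWP2 cultures. Of 25 Wnt targets and feedback genes, 14 were called higher in ESCs and 6 lower, 8 and 2 of them at least 2-fold, with a median of 0.37. Axin2, a feedback inhibitor induced by beta-catenin, read 5.54, 5.70 and 5.76 with IWP2 and 7.69, 7.74 and 7.84 in ESCs (2.09, adjusted p = 1.49e-08). Vehicle arrays, at 5.83, 5.67 and 5.98, were not called different from IWP2 for Axin2 (adjusted p = 0.191). Notum, which removes the Wnt lipid outside the cell, had the same shape: 4.60, 4.43 and 4.27 with IWP2, 4.40, 4.48 and 4.29 with vehicle and 7.56, 7.83 and 7.83 in ESCs (3.30). Tnfrsf19 (Troy) had another. It was at 7.79, 8.09 and 8.04 with vehicle, 4.36, 4.21 and 3.96 with IWP2 and 8.53, 8.46 and 8.40 in ESCs (4.29). Sp5 followed Tnfrsf19 with 6.49, 6.83 and 6.69, then 4.76, 4.47 and 5.14, then 7.81, 7.78 and 7.74 in ESCs. Dkk1 (0.37) and Lgr5 (0.20) had a further pattern, at 9.08, 9.04 and 9.29 for Dkk1 with vehicle but 4.21, 4.09 and 3.94 with IWP2 and 4.47, 4.77 and 4.11 in ESCs. Axin2, Notum, Sp5 and Tnfrsf19 were thus above the IWP2 level in ESCs, and Dkk1 and Lgr5 were not called by limma (adjusted p = 0.0571 and 0.0665). Both lay near the threshold. Leaving treat aside, Dkk1 was called higher under 5 of 22 alternatives, without ESC replicate 3 among them (adjusted p from 0.0036 to 0.239), and Lgr5 under 6 of 22, among them without EpiSC with IWP2 replicate 1 or without ESC replicate 2 (0.0132 to 0.448). Lower in ESCs were the antagonist Sfrp1 (-2.39), the receptor Fzd7 (-1.29), and the transcription factors Tcf7l2 (-0.63) and Tcf7l1 (-0.50), the last a repressor of naive genes.

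Among Wnt ligands and secretion genes, 7 of 21 were called higher, about the 35.2% of all genes, 3 were lower, against 26.9% of all genes, and 11 were not called. Porcn, which encodes the target of IWP2, read 4.82, 4.65 and 4.50 with IWP2, 5.80, 5.55 and 5.61 with vehicle and 9.03, 8.95 and 8.85 in ESCs, a rise of 4.29 (SE 0.10, adjusted p = 1.48e-10). It lies on the X chromosome. Wls, the carrier of lipid-bearing Wnt, went the other way, at 7.71, 7.56 and 7.85 with IWP2 and 4.34, 4.54 and 4.51 in ESCs (-3.24). Wnt9a (-1.59) and Wnt4 (-1.38) were lower in ESCs, and Wnt6 rose by 0.66. Wnt3, the ligand of the early streak, was not called (-0.16), nor was Wnt3a itself (0.16). The number of ligand and secretion genes called higher depended on scaling, from 3 with quantile normalization repeated to 12 with median centring. It was 4 with the offset of 32 and without EpiSC with IWP2 replicate 3 or without ESC replicate 2. The call of Wnt2b (0.32) was among those lost, with adjusted p = 0.132 under quantile normalization and 0.112 under cyclic loess (limma), while Wnt7b (0.43) was called under both.

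In the Nodal and Activin pathway, 13 of 22 genes were called lower in ESCs and 6 higher, with a median of -0.53. Lefty1 and Lefty2, neighbouring paralogs that antagonise Nodal, moved apart. Lefty1 read 12.17, 12.13 and 12.13 with IWP2 and 9.09, 9.15 and 9.23 in ESCs (-2.99). Lefty2 read 7.32, 7.28 and 7.15 with vehicle, 4.79, 4.69 and 4.62 with IWP2 and 7.96, 7.98 and 7.70 in ESCs (3.18). Near-identical paralogs can share probes, and the separate directions hold only for the probe sets used. Gdf3, a ligand of the same family, rose by 5.34, and its IWP2 arrays, at 4.67, 4.61 and 4.69, were not called different from vehicle (adjusted p = 0.839). The genes lower in ESCs included Pmepa1 (-2.19), Skil (-1.79), the receptor Acvr2b (-1.69) and the cofactor Foxh1 (-1.48), while the ligand Nodal (0.60) and the inhibitory Smad gene Smad7 (0.88) were higher. In the BMP list 11 of 21 were higher and 4 lower, against 35.2% and 26.9% of all genes. Bmp4 rose by 3.91, from 5.65, 5.81 and 5.51 to 9.52, 9.56 and 9.61. Id3, a BMP target that inhibits differentiation factors, was at 9.30, 9.39 and 9.35 with vehicle, 5.87, 5.55 and 5.55 with IWP2 and 8.50, 8.49 and 8.63 in ESCs (2.88). Id4 rose by 1.79. Bmp2 read 10.13, 10.19 and 9.96 with vehicle and was near the floor in both other groups (0.16, not called). Id1 (-0.09), Bmp5 (-0.29) and Chrd (-0.07) were not called. The signal transducers Smad5 (-1.92) and Smad1 (-0.74) and the receptor Bmpr2 (-1.35) were lower in ESCs.

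FGF and ERK genes divided, with 12 of 29 higher and 13 lower, against 35.2% and 26.9% of all genes. Their median of 0.01 changed sign under other scalings. Feedback genes did not move as a block. Dusp6, a phosphatase of ERK, read 9.76, 9.84 and 9.91 with IWP2 and 8.38, 8.38 and 8.46 in ESCs (-1.43), and Egr1, an immediate early gene, was 7.75, 7.81 and 7.84 against 5.44, 5.86 and 5.85 (-2.09). Spry4, a feedback inhibitor of the same pathway, rose by 2.38, from 4.92, 5.39 and 4.81 to 7.39, 7.39 and 7.47, and Spry2 by 1.56. Etv4 and Etv5, transcription factors induced by FGF, rose by 1.98 and 1.54. Fgf15 (-2.53), Fgf5 (-5.11) and the receptor Fgfr1 (-1.10) were lower, and Fgf2 (0.05), Fgfr4 (0.17) and Fos (0.01) were not called.

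Epithelial genes differed in both directions in cells that are epithelial in either state. Of 29 measured, 11 were called higher and 16 lower, with a median of -0.66. Cdh1 (E-cadherin) changed little, from 11.52, 11.53 and 11.50 to 11.20, 11.14 and 11.21 (-0.34, adjusted p = 0.000892). Cdh2 (N-cadherin) read 8.88, 9.04 and 9.03 with IWP2 and 6.82, 6.75 and 6.78 in ESCs (-2.20), with vehicle arrays at 10.46, 10.34 and 10.40. The keratins Krt8 and Krt18 fell in 2 steps across the groups. Krt18 was at 12.14, 11.98 and 12.39 with vehicle, 9.04, 8.82 and 9.19 with IWP2 and 5.84, 5.53 and 5.43 in ESCs (-3.42), and Krt8 differed between ESCs and IWP2 by -1.92. Esrp1, a splicing regulator of epithelia, was lower by -2.85 and the desmosomal cadherin Dsc2 by -2.43. Its relative Dsg2 was higher in ESCs by 4.24, with 9.54, 9.54 and 9.44 with vehicle, 6.69, 6.33 and 6.65 with IWP2 and 10.75, 10.74 and 10.89 in ESCs. The tight junction claudin Cldn4 behaved as Dsg2 did, at 6.79, 6.74 and 7.27, then 4.14, 3.99 and 4.08, then 7.63, 7.40 and 7.51 (3.45). Grhl2 (2.33) and Grhl3 (1.803), regulators of epithelial genes, also rose.

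Of 17 genes tied to the mesenchymal transition, 9 were called lower and 4 higher, the latter 2 without EpiSC with IWP2 replicate 1 and with quantile normalization or cyclic loess. Besides Cdh2, the matrix proteases Mmp14 (-1.99) and Mmp2 (-1.38) and the factor Twist1 (-2.25) were lower. Ccn2 (connective tissue growth factor) rose by 5.10, from 3.89, 3.65 and 3.64 to 8.79, 8.84 and 8.85, and fibronectin (Fn1) by 1.48. Matrix genes gave 7 of 21 higher and 9 lower, against 35.2% and 26.9% of all genes. The basement membrane linker nidogen Nid1 rose by 2.97 and Nid2 by 1.59, while the collagens Col4a1 and Col4a2, the fibrillin Fbn2 (-2.85) and the proteoglycan Vcan (-2.57) fell. In the axon guidance list 9 of 35 were higher, 15 lower and 11 not called, beside the same shares of all genes. Its median of -0.02 changed sign under median centring. Efnb2, an ephrin ligand, read 10.18, 10.19 and 10.29 with IWP2 and 6.26, 6.14 and 6.11 in ESCs (-4.05). Sema3c (-5.26), Sema3e (-3.59), Nrcam (-3.74) and Lrrn1 (-4.54) were likewise lower. Ntn1 (netrin) was the main rise at 4.44, and Slit2 rose by 1.07 from a low level, having been 9.98, 9.94 and 10.07 in vehicle cultures.

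Some ESC-high genes were lower with IWP2 than with vehicle, so that the IWP2 comparison gave the larger difference. They are described by value, and the difference between the EpiSC cultures is the one tested. Ifitm1, an interferon-induced membrane protein of the epiblast and germ cells, was at 9.77, 10.12 and 9.86 with vehicle, 5.76, 5.56 and 5.67 with IWP2 and 10.63, 10.79 and 10.76 in ESCs. ESC minus IWP2 was 5.06, ESC minus vehicle 0.81 and IWP2 minus vehicle -4.25 (adjusted p = 2.16e-09). Kit, the receptor of stem cell factor, read 8.64, 8.77 and 8.38 with vehicle, 5.50, 5.69 and 5.29 with IWP2 and 10.03, 10.01 and 9.91 in ESCs (4.49). Ntn1 was 7.62, 7.63 and 7.82 with vehicle against 4.24, 4.34 and 4.69 with IWP2 and 8.94, 8.82 and 8.84 in ESCs. Myc, a growth regulator and Wnt target, was 8.47, 8.62 and 8.29 with vehicle, 6.81, 6.89 and 6.51 with IWP2 and 8.47, 8.47 and 8.37 in ESCs, so ESC minus IWP2 was 1.70 and ESC minus vehicle -0.02. Id3, Lefty2, Tnfrsf19, Dsg2, Cldn4 and Mcf2, given with their pathways, share this order of IWP2 lowest. In the other direction, Sema3c was at 7.38, 6.99 and 7.49 with vehicle, 8.80, 8.79 and 9.08 with IWP2 and 3.93, 3.54 and 3.42 in ESCs. Ets1 was at 7.77, 7.53 and 8.03 with vehicle, 9.35, 9.42 and 9.48 with IWP2 and 3.56, 3.76 and 3.13 in ESCs. Lrrn1, a neuronal leucine-rich repeat protein, was 2.65 higher with IWP2 than with vehicle (adjusted p = 2.17e-07) and Kctd12b 2.20 higher (adjusted p = 2.97e-08). These genes were named after their values were seen where no list holds them.

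**Figure D4:**
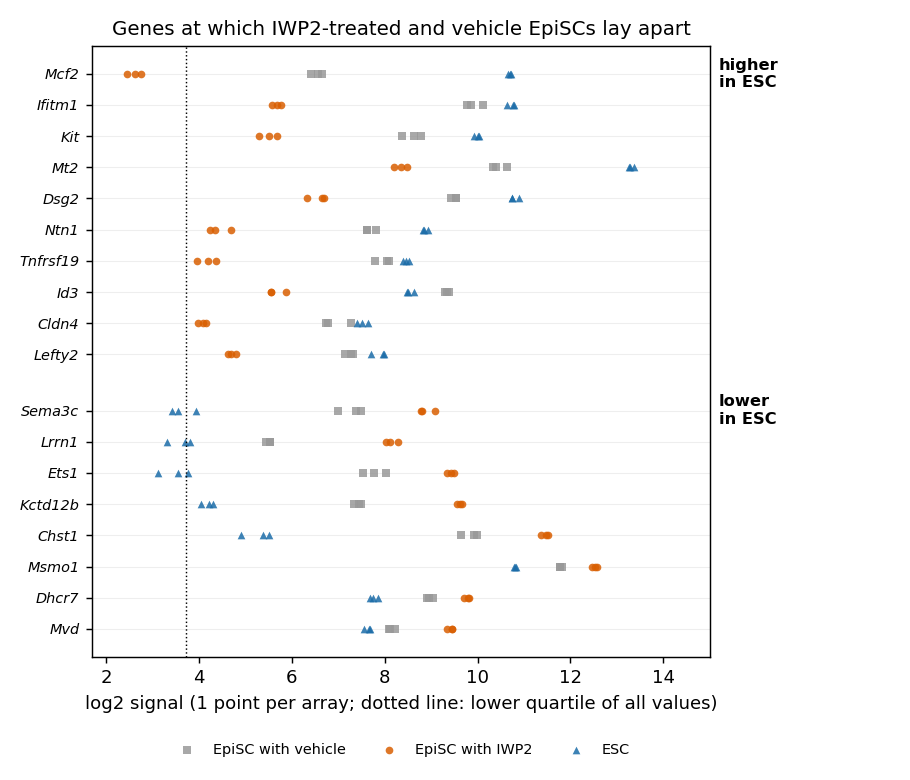
Log2 signal on each of the 9 arrays for genes at which vehicle and IWP2-treated EpiSCs lay apart; each point is 1 array, and the dotted line is the lower quartile of all values, 3.72. For the genes higher in ESCs, such as Ifitm1 and Kit, IWP2 arrays are the lowest of the 3 groups, and for those lower in ESCs, such as Ets1 and Mvd, they are the highest.

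Sterol synthesis genes were lower in ESCs as a group. Of 20 measured, 17 were called lower, 13 of them at least 2-fold, and 1 higher, with a median of -1.53. The list's median for ESC minus vehicle was -0.97, with 14 lower, and for IWP2 minus vehicle 0.48, with 16 higher. Dhcr7, a late enzyme of cholesterol synthesis, read 8.96, 9.03 and 8.92 with vehicle, 9.81, 9.71 and 9.79 with IWP2 and 7.74, 7.68 and 7.86 in ESCs (-2.01). The mevalonate enzyme Mvd read 8.09, 8.23 and 8.12, then 9.45, 9.35 and 9.45, then 7.67, 7.56 and 7.69 (-1.78). Msmo1 (-1.72), Pmvk (-1.77) and the sterol carrier Stard4 (-1.67) were close to it in size. The 1 member higher in ESCs was Ebp, an X-linked sterol isomerase gene, at 8.44, 8.37 and 8.37 with IWP2 and 10.94, 10.94 and 10.96 in ESCs (2.56). Nsdhl (-0.24) and Fdft1 (-0.14) were not called.

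Other metabolic lists moved less. Glycolysis genes gave 14 of 21 lower and 3 higher, with a median of -0.37. The muscle-type isoforms Pfkm (-1.89) and Eno3 (-1.48), the lactate exporter Slc16a3 (-1.98) and Aldoc (-1.84) were lower, while the platelet-type phosphofructokinase Pfkp rose by 2.90. Subunits of the respiratory chain had no member at or above 2-fold in either direction. Of 35, 14 were called higher and 7 lower, against 35.2% and 26.9% of all genes. Those called lower were 4 without ESC replicate 1 and with median centring. The list's median was 0.07, with members from Ndufa1 (0.95) to Sdhd (-0.64). Of 13 genes of threonine, serine and glycine metabolism 5 were higher and 7 lower, against 35.2% and 26.9% of all genes. Among those lower were the folate enzyme Mthfd2l (-3.72) and the serine synthesis enzyme Phgdh (-1.17). Tdh, Gcat and Amt were not measured, so the counts do not cover Tdh or Gcat, which break down threonine. Glycine decarboxylase (Gldc) rose by 0.55. Zinc handling held large single differences. Besides Slc39a8, the importer Slc39a10 (-1.61) and the exporter Slc30a4 (-2.32) were lower in ESCs. The metallothioneins, metal-binding proteins that respond to zinc, were higher: Mt2 read 8.49, 8.35 and 8.21 with IWP2, 10.32, 10.64 and 10.41 with vehicle and 13.37, 13.27 and 13.29 in ESCs (4.96), and Mt1 differed by 4.38. The importer Slc39a4 rose by 3.35 and the zinc exporter Slc30a1, itself a zinc-responsive gene, by 1.82.

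DNA methylation genes were mostly higher in ESCs, with 11 of 16 called higher and 3 lower and a median of 0.64. Dnmt3l, a cofactor of the de novo methyltransferases, read 4.27, 4.08 and 4.42 with IWP2 and 9.61, 9.63 and 9.45 in ESCs (5.31). Tet2, which oxidises methylcytosine, rose by 3.89, from 7.02, 6.88 and 6.93 to 10.87, 10.85 and 10.79, and Tet1 by 1.52. The imprint guardian Zfp57 rose by 1.98. The methyltransferases Dnmt3b (-1.21) and Dnmt3a (-0.90) and Gadd45b (-1.77) were lower, and Tet3 was not called. Polycomb genes gave 14 of 29 higher and 10 lower, against 35.2% and 26.9% of all genes, with a median of 0.08. Another probe set of Eed went the other way. Jarid2 (1.71), Eed (1.42), Mtf2 (1.40), Bmi1 (1.40) and Cbx7 (1.17) rose, Yaf2 was lower (-1.95), and Ezh2 differed by -0.41. Of 27 imprinted genes 15 were higher and 6 lower, beside the same shares of all genes. Plagl1, which encodes a zinc finger regulator of growth, was at 6.90, 6.99 and 6.78 with IWP2 and 11.76, 11.68 and 11.71 in ESCs (4.83). The amino acid transporter Slc38a4 rose by 3.13, the long RNA Meg3 by 2.65 and Impact by 2.57, with another Impact probe set going the other way. Gnas (-2.76), the adaptor Grb10 (-2.65) and Phlda2 (-2.21) were lower, and Peg3 (-0.10) and Mest (0.10) were not called. Igf2 differed by -2.63 between IWP2 and vehicle and by a further -0.87 between ESCs and IWP2.

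Surface proteins, several of them used to sort the states apart, differed widely. Of 18, 5 were called higher and 10 lower. Icam1 rose by 4.21, Kit by 4.49, alkaline phosphatase (Alpl) by 3.09, Cd9 by 2.45 and Pecam1 by 2.26. Prom1 (CD133) read 10.54, 10.43 and 10.55 with IWP2 and 6.43, 6.62 and 6.69 in ESCs (-3.93). Cd59a (-2.39), Cd44 (-2.33) and Podxl (-2.11) were lower too. Genes of antigen presentation were lower for 8 of 16 members and higher for 4. B2m, the shared chain of class I molecules, read 9.74, 9.72 and 9.87 with IWP2 and 6.67, 6.76 and 6.70 in ESCs (-3.06), and H2-D1 (-2.25), H2-K1 (-2.07) and the peptide transporter Tap1 (-1.60) went with it. The members that rose were Ifitm3 (5.45), Ifitm1 (5.06), Ifitm2 (0.74) and Irf1 (0.52).

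Proliferation genes were mixed, with 12 of 26 higher and 11 lower, against 35.2% and 26.9% of all genes. Their median of -0.03 changed sign under median centring. Mki67 (-1.22), Aurkb (-0.92) and Bub1 (-0.73), all of mitosis, were lower in ESCs, and Cdkn1b (p27), an inhibitor of cyclin-dependent kinases, fell from 10.04, 10.10 and 10.24 to 7.26, 7.21 and 7.14 (-2.92). The cyclins Ccnd3 (1.86), Ccnd1 (1.25) and Ccne1 (1.16) rose. Cdkn2b was 7.79, 8.09 and 7.74 with vehicle, 4.89, 5.04 and 4.89 with IWP2 and 6.48, 6.54 and 6.54 in ESCs (1.58). In the apoptosis list 7 of 16 were higher and 8 lower, against 35.2% and 26.9% of all genes, the larger differences being falls. Bcl2, which protects from death, differed by -3.29, and the death promoters Pmaip1 (Noxa) and Bcl2l11 (Bim) by -2.66 and -2.22. Bmf was called lower by -1.25 on the probe set used but was 0.12 and not called without cross-hybridising probe sets. Stress genes gave 7 of 18 higher and 5 lower, against 35.2% and 26.9% of all genes. The heat shock gene Hspa1b (2.70) and the oxidative stress gene Nqo1 (2.56) were highest and Ddit4 (-1.92) and Atf3 (-1.68) lowest.

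**Figure D5:**
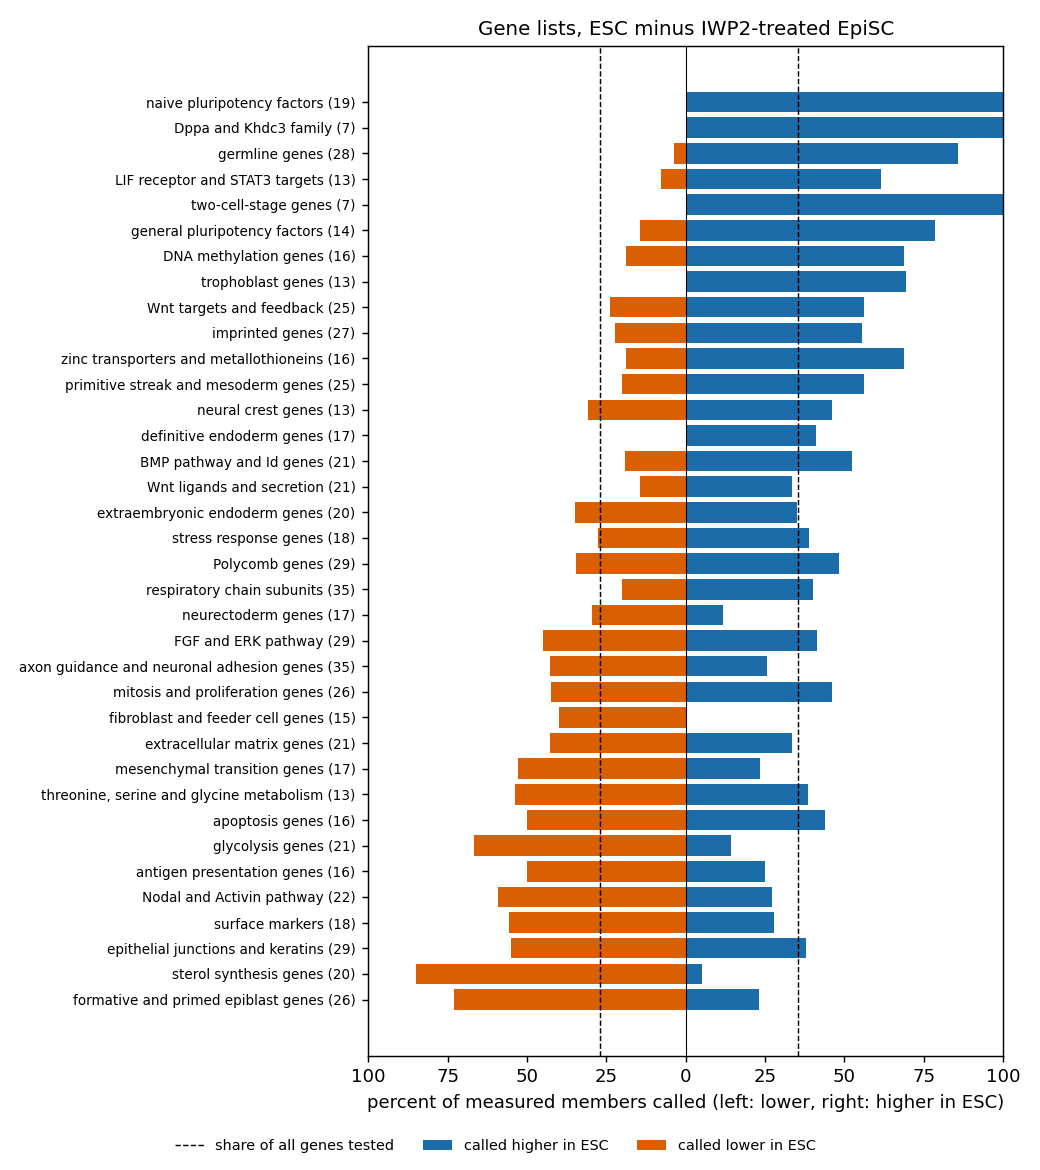
Percent of the measured members of each gene list, other than the sex-chromosome genes, called higher (right, blue) or lower (left, orange) in ESCs than in IWP2-treated EpiSCs, sorted by the list's median difference, with the number measured in brackets. Dashed lines mark the shares of all genes tested, 35.2% higher and 26.9% lower; naive, Dppa and Khdc3 and two-cell-stage genes reach 100% higher, and among the lists plotted sterol synthesis and primed epiblast genes have the largest shares lower.

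Sex-chromosome genes differed between ESCs and both kinds of EpiSC culture. The Y-linked translation factor gene Eif2s3y read 9.75, 9.83 and 9.88 with IWP2, 9.85, 9.80 and 9.84 with vehicle and 2.45, 2.38 and 2.06 in ESCs. The Y-linked demethylase genes Kdm5d and Uty were likewise near the floor on all 3 ESC arrays, at 2.42 to 2.63 and at 2.23 to 2.55, and differed by -5.87 and -5.10. Xist, the RNA that coats an inactive X chromosome, read 6.38, 6.82 and 6.99 with IWP2, 5.13, 5.35 and 4.94 with vehicle and 9.15, 9.01 and 9.06 in ESCs (2.34). Of 617 X-linked genes tested, 343 were called higher in ESCs and 98 lower, 130 and 49 of them at least 2-fold, with a median difference of 0.28 against 0.10 for all genes. X-linked genes described here include Porcn, Ebp, Mcf2, Nr0b1, Mageb16, Efhc2, Rhox5, Rhox6, Ndufa1, Nsdhl, Klhl4, Fndc3c1 and Kctd12b. Of these, Nr0b1, Mageb16, Mcf2, Efhc2 and Rhox5 are among the largest rises named. Klhl4, Fndc3c1 and Kctd12b are among the largest falls named, as are the Y-linked Eif2s3y and Kdm5d. The share of the sex-chromosome difference in the values of these X-linked and Y-linked genes was not tested. With X and Y genes left out, the counts of at least 2-fold differences were 1302 higher and 1659 lower.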

How the data were processed

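Per the labels' protocols, RNA of 9 mouse cultures was turned into biotin-labelled cRNA and measured on Affymetrix Mouse Genome 430 2.0 arrays. The authors deposited log2 values for 45101 probe sets; RMA and limma are named, without versions, in the submitters' processing notes. RMA puts the arrays on a common scale, which hides any shift in a cell's total RNA, although the quartiles of the deposited values still differ between groups. No detection calls or raw scans were used here.

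Probe sets were named from GEO's platform annotation: 34945 carried 1 symbol, 932 several, 9160 none and 64 were controls. A total of 34741 of the first were found in RefSeq, and no symbol changed. Each gene took its probe set with the highest mean, which left 18193 genes. Group means of all 9 arrays were fitted with limma 3.58.1 in R 4.3.3 (6 residual degrees of freedom, 9.58 after moderation, median SE 0.08), with Benjamini-Hochberg adjustment over all genes; called means adjusted p below 0.05, and 2-fold an absolute difference of at least 1. The spread of 3 arrays per group limits the precision. Tested on simulated data with the arrays' spread, the fit recovered 34% of differences of 0.3, 56% of 0.5, 94% of 1 and 100% of 2, and 4.05% of its calls were false. There only 50 of 18193 genes were changed at each size, far fewer than were called here. The adjustment depends on how many genes differ, so these rates need not hold for this comparison.

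Named are the 15 largest rises and 15 largest falls among called genes whose higher mean reached the median signal of 5.24 and whose arrays did not overlap, genes fixed by name, and of each of 37 lists up to 5 called members per direction and up to 3 not called (all where at most 12 were measured); some others are shown by value. The comparison, the lists and the promoter motifs were chosen with earlier results of these data known. Of 724 listed genes 665 were measured. T, which was fixed by name, was not. Replicate numbers were not taken to pair the samples. Same-numbered arrays of different groups correlated at -0.06 to 0.05 in their deviations from the group means, which cannot show whether cultures were handled in matched sets. The alternatives changed the choice of probe sets, a signal filter, an offset, the normalization, the arrays fitted, the variance model, the threshold and the sex chromosomes, or left out 1 array.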

Additional observations from a re-analysis of the deposited data

Results flagged for a closer look

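Probe sets without a gene symbol, which no comparison of genes used, also differed between ESCs and IWP2-treated EpiSCs. Of 9160 such probe sets 3802 (41.5%) were called, against 62.1% of the named genes. Of them 273 (2.98%) were at least 2-fold higher in ESCs and 542 (5.92%) at least 2-fold lower, against 7.87% and 9.4% of the named genes. Their genes are unnamed here, and the rule that singled them out was a signal in data outside the gene table.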

How the results depend on the processing

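The counts of 6400 higher and 4898 lower moved by over 1.5 times only where limma's treat required a difference above 1, which left 1049 higher and 1230 lower. Leaving out 1 array gave 5817 to 6419 higher, 4682 to 4914 lower, 1412 to 1458 at least 2-fold higher and 1701 to 1718 at least 2-fold lower. With the replicate number as a block, 6311 were higher and 4827 lower. Whether the numbers pair the samples is not known. The share of calls that were higher was 56.6% and ran from 50.7% with the signal filter to 61.6% with median centring, and was 46% with treat. Genes that changed sign with the mean of their probe sets were Sall4 (-0.123), Ncam1 (0.180), Sox1 (-1.058), Pax6 (-0.537), Smad2 (-0.028), Zeb2 (-0.906), Pdk1 (-0.579), Atp5o (-0.194) and Ndufb8 (0.362); without cross-hybridising probe sets they were Acta2 (0.078) and Bmf (0.123). Cross-hybridising means names ending in _x_at or _s_at. The cause was not tested beyond the choice of probe set. Depth is not defined for arrays; low signal compresses differences, and an offset of 32 left 957 genes at least 2-fold higher and 1199 lower.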
